A study of Mus musculus with 141 samples.

Results

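The brown and beige thermogenic genes *Ucp1*, *Cidea*, *Cox8b*, *Cox7a1*, *Elovl3*, *Ppargc1a*, *Dio2*, *Prdm16* and *Otop1* were followed across inbred strains, strain families and sexes in mouse inguinal white adipose tissue (iWAT), the subcutaneous fat pad of the groin. The 9 members are a list of genes by name, with no threshold on any measured value, and are 9 of the 36558 genes in the expression tables, and all 9 passed the filter on low counts. The mice belonged to the Hybrid Mouse Diversity Panel, which joins classical inbred strains to recombinant inbred lines. In all, 67 female and 74 male libraries were sequenced, and no strain has more than 1 per sex. Of the 82 strains, 59 are represented by each sex, 8 by the female alone and 15 by the male alone. AXB19/PgnJ, AXB19a/PgnJ and AXB19b/PgnJ share a line number and were counted as separate strains. The labels do not say how closely they are related. All mice ate chow up to 8 weeks of age and a diet rich in fat and sucrose for the next 8 weeks, lived at 25 °C and had no food in the last 4 h, so no library stands for chow feeding or for cold exposure. No treatment besides the diet is given, so the groups differ by sex and strain. Alleles are part of the strain names BXD24/TyJ-Cep290<rd16>/J and BTBR T<+> tf/J, each of which has a female and a male library. Because no strain has a second library of the same sex, the spread between mice of the same sex and strain was not measured. Each p-value rests on the spread between strains or between the sexes of a strain. The title of each library opens with 1 number, read here as that of a mouse, but the labels do not say whether RNA of several mice was pooled.

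Brown and beige adipocytes burn fuel to make heat. Their mitochondria carry the uncoupling protein UCP1, which lets protons return across the inner membrane without making ATP, and noradrenaline released by sympathetic nerves switches the process on through beta-adrenergic receptors, cAMP and protein kinase A. Beige adipocytes arise within white fat, most readily in the inguinal pad of mice, and the inguinal pad of inbred strains has long been known to differ in how many it holds. Among the members, *Ucp1* is the effector, *Cidea* encodes a lipid droplet protein of brown adipocytes, *Cox8b* and *Cox7a1* encode tissue-restricted subunits of cytochrome c oxidase, and *Elovl3* encodes an elongase of very long chain fatty acids that is induced in brown fat by cold. *Ppargc1a* and *Prdm16* encode transcriptional coregulators, of mitochondrial biogenesis and of brown and beige identity. *Dio2* encodes the deiodinase that makes active thyroid hormone in the cell, and *Otop1* encodes a proton channel that is also known as a beige fat marker.

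Estimated counts per library ranged from 6269154 to 78562648 (median 30233245), and 3 counts, below which a gene is treated here as undetected, equal 0.0992 CPM (counts scaled to a total of 1000000) at the median depth. The summed level of 6 adipocyte markers lay between 1185 and 11581 TPM (transcript abundance corrected for length and scaled to a total of 1000000), and all 6 were detected in the median library of each sex. Mammary epithelial markers, which belong to the gland embedded in the female inguinal pad, summed to a median of 581.6 TPM in females and 3.33 TPM in males. In 3 libraries the Y-linked genes went against the label. The libraries labelled female BXD34/TyJ and female BXD69/RwwJ carried Y-linked counts of 1425 and 368 CPM, against 5.58 to 34.1 CPM in the other females. The library labelled male NZW/LacJ carried 8.16 CPM, against 184.8 to 539 CPM in the other males, of which PL/J was the lowest. The sex and family tests were also run without them, and values that changed a call are given beside the result. Because the tissue was measured in bulk, fewer thermogenic cells and less of a transcript per cell cannot be told apart.

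The start of a gene shows which short sequences known to bind thermogenic regulators lie closest to it, and 3 promoters are printed, those of *Ucp1*, of *Cox8b*, which followed *Ucp1* across libraries at rho = 0.82 in females and 0.57 in males, and of *Dio2*, which followed it at 0.32 and 0.38. Each run is the 250 bases before the RefSeq transcription start (build GRCm38.p6, read in the direction of the gene, 5′ to 3′), and capitals mark every match to the motifs searched.
Ucp1: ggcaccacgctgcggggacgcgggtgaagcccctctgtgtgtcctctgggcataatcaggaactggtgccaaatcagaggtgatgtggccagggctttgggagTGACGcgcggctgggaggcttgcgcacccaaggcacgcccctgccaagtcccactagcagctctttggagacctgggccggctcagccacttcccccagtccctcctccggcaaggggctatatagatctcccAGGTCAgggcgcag
Cox8b: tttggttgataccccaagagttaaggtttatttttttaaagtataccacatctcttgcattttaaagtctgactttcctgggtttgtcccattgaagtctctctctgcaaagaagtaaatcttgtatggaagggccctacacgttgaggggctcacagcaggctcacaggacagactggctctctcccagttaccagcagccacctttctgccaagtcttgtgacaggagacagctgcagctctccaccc
Dio2: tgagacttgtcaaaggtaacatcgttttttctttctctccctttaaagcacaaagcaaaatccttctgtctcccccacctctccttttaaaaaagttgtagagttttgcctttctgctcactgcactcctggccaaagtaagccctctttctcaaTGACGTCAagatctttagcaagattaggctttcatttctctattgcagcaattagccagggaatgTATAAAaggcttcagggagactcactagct
The *Ucp1* window (chr8:83290098-83290347, plus strand) holds TGACG, the core of the cAMP response element, and AGGTCA, the core site of nuclear receptors, 147 and 14 bases before the start. The *Dio2* window (chr12:90739039-90739288, minus strand) holds the full cAMP response element TGACGTCA 95 bases before the start and a TATA box, TATAAA, 30 bases before it. The *Cox8b* window (chr7:140900447-140900696, minus strand) holds no match. Both strands were searched for the TATA box TATAAA, the CCAAT box, the cAMP response element TGACGTCA and its core TGACG, which lies within it, the nuclear receptor site AGGTCA, the site AAGGTCA of estrogen-related receptors, which contains the former, the EBF site CCCNNGGG and the GC box GGGCGG. Over all 32851 windows of this length, 17.8% held TGACG, 14.02% AGGTCA, 1.55% TGACGTCA and 12.4% TATAAA. Windows were present for 7 members, and in the other 4 of them *Cox7a1* and *Prdm16* held CCAAT (33.8% of all windows), *Prdm16* and *Otop1* held GGGCGG (32.7%) and *Ppargc1a* held TGACG. The RefSeq start is the gene start of the GENCODE annotation for *Cox8b* and *Prdm16* and differs from it for the other 5 members. A match is a run of letters in this window and no measured binding site.

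*Cox8b* was the most abundant member and *Dio2* the least, in each sex, and *Ucp1* reached the highest level of any member in a single library. Levels between genes are compared as TPM. *Cox8b* had medians of 135.1 TPM (female) and 135.4 TPM (male), followed by *Cidea* (30.2 and 38.7 TPM), *Cox7a1* (15.4 and 16.6 TPM), *Otop1* (9.99 and 14.5 TPM), *Ucp1* (7.04 and 7.60 TPM), *Prdm16* (3.32 and 4.98 TPM), *Ppargc1a* (2.07 and 2.49 TPM), *Elovl3* (1.12 and 0.735 TPM) and *Dio2* (0.642 and 0.468 TPM). The order was the same in females and in males. Of the 16 neighbouring pairs in that order, 14 differed within libraries in a two-sided permutation test of signs on log2(TPM + 0.1), adjusted over the 16. The 2 that did not were *Otop1* and *Ucp1* in females, where *Otop1* was higher in 35 of 67 libraries (adjusted p = 0.804, permutation test), and *Ppargc1a* and *Elovl3* in females, where *Ppargc1a* was higher in 39 of 67 (adjusted p = 0.311, permutation test). *Cox8b* exceeded *Cidea* in 67 of 67 female and in 74 of 74 male libraries.

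**Figure D1:**
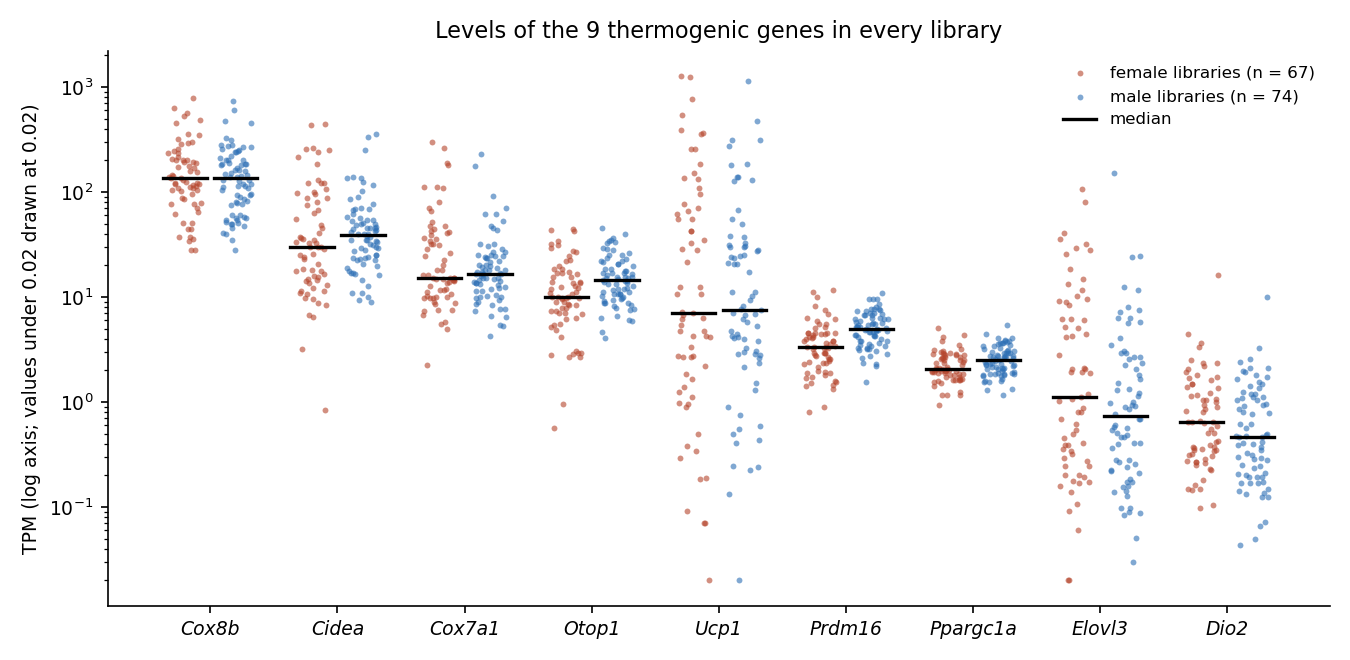
TPM of the 9 genes (log axis) in each of 67 female and 74 male libraries, with each point a library and black lines the medians of each sex. *Ucp1* and *Elovl3* spread from 0 to 1276 and to 152 TPM, while *Ppargc1a* stays between 0.948 and 5.44 TPM in all libraries.

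*Ucp1* (ENSMUSG00000031710, chr8:83290352-83298452) was at or above 100 TPM in 14 of 67 female and 11 of 74 male libraries and below 1 TPM in 13 and 12. Its level was 0 to 1276 TPM in females (quartiles 1.74 and 68.3 TPM) and 0 to 1134 TPM in males (quartiles 2.87 and 30.4 TPM). The 5 highest libraries held 60.2% of the summed *Ucp1* TPM of the females and 59.6% of that of the males. The highest female libraries were BXD14/TyJ with 1276 TPM, MA/MyJ with 1250 TPM and BXD75/RwwJ with 770.9 TPM. The highest male libraries were SJL/J with 1134 TPM, SWR/J with 473.1 TPM and the library labelled male NZW/LacJ with 315.4 TPM. The lowest were female BXD27/TyJ and male BXD45/RwwJ, listed at 0, followed in females by BXD74/RwwJ and BXD85/RwwJ (0.0706 and 0.0707 TPM) and in males by BXD48/RwwJ and BXA7/PgnJ (0.132 and 0.224 TPM). In all, 3 female libraries and 1 male library had fewer than 3 *Ucp1* counts.

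*Cidea* (ENSMUSG00000024526, chromosome 18) ran from 0.840 to 447.9 TPM in females and from 8.96 to 358.1 TPM in males. The lowest library was female BXD34/TyJ, whose Y-linked counts went against its label and which had the fewest counts of all libraries (6269154). The next lowest was female AXB12/PgnJ at 3.23 TPM. *Cox8b* (ENSMUSG00000025488, chr7:140898945-140900446) was detected throughout, from 27.9 TPM in male BXD85/RwwJ to 780.6 TPM in female BXD14/TyJ. *Cox7a1* (ENSMUSG00000074218, chr7:30184144-30186078) ran from 2.26 TPM in female AXB12/PgnJ to 302.3 TPM in female MA/MyJ. The upper end of these 3 genes was held by the *Ucp1*-rich libraries. All 10 female libraries with the most *Ucp1* were also the 10 with the most *Cidea*, and 9 of them were among the 10 highest for *Cox8b*, for *Cox7a1* and for *Elovl3*. In males 8 of the 10 were shared with *Cidea*, 7 with *Cox7a1*, 7 with *Elovl3* and 5 with *Cox8b*.

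*Elovl3* (ENSMUSG00000038754, chr19:46131897-46135694) was near the floor of detection in many libraries. It was below 1 TPM in 31 of 67 female and 44 of 74 male libraries, and reached 106.3 TPM in female MA/MyJ and 152.1 TPM in male SJL/J. Fewer than 3 counts were present in 3 female and 2 male libraries. *Dio2* (ENSMUSG00000007682, chr12:90724552-90738438) was below 1 TPM in 43 female and 51 male libraries. Its highest library in each sex was CXB11/HiAJ, with 16.2 TPM in the female and 10.1 TPM in the male, and the next in each sex was BXD75/RwwJ, with 4.41 and 3.25 TPM. The same CXB11/HiAJ libraries held 10.6 and 2.87 TPM of *Ucp1*. Their skeletal muscle score, the mean log2 CPM of the muscle markers, was 4.01 and 3.79, and the part of muscle in their *Dio2* level was not tested.

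The coregulators and the proton channel had the smallest ratios of the upper to the lower quartile of TPM, 1.56 and 1.58 for *Ppargc1a*, 1.96 and 1.68 for *Prdm16* and 2.40 and 2.02 for *Otop1* in females and in males. *Ppargc1a* (ENSMUSG00000029167, chr5:51454250-51567726) ran from 0.948 to 5.09 TPM in females and from 1.16 to 5.44 TPM in males, and its highest library in each sex was BXD75/RwwJ. *Prdm16* (ENSMUSG00000039410, chr4:154316125-154636873) ran from 0.805 to 11.7 TPM in females and from 1.54 to 10.8 TPM in males. *Otop1* (ENSMUSG00000051596, chr5:38275972-38304217) ran from 0.567 to 44.1 TPM in females and from 4.04 to 45.2 TPM in males. The female AXB12/PgnJ library was lowest of the female libraries for *Cox8b*, *Cox7a1*, *Ppargc1a* and *Otop1*, and its adipocyte marker score, the mean log2 CPM of the 6 adipocyte markers, was 7.80 against a range of 7.75 to 11.3 over all libraries.

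Several members belong to families in which another isoform is the common one in fat. *Ucp2*, an uncoupling protein homologue of many tissues, had a median of 266.5 TPM in females and 247.2 TPM in males, and *Ucp1* exceeded it in 9 female and 5 male libraries. *Ucp1* made up a median of 2.62% and 3.73% of the summed *Ucp1*, *Ucp2* and *Ucp3* TPM, and at most 87.4% and 76.9%. *Cidec*, the lipid droplet protein of white adipocytes, had a median of 945.4 TPM in females and 1525 TPM in males, and *Cidea* exceeded it in 1 female library and in no male library. *Cox8b* made up a median of 26.2% and 24.2% of the summed *Cox8a* and *Cox8b* TPM and exceeded *Cox8a* in 6 female and 3 male libraries. *Cox7a1* made up 3.18% and 3.26% of the sum with *Cox7a2* and *Cox7a2l*, and never exceeded *Cox7a2*. *Elovl3* made up 0.698% and 0.637% of the sum with *Elovl1*, *Elovl5* and *Elovl6*. By contrast *Dio2* made up a median of 90.8% and 80.98% of deiodinase TPM, and *Otop1* at least 98.1% of otopetrin TPM in every library, since *Otop2* and *Otop3* were at or near 0. *Ppargc1b*, the sister coactivator of *Ppargc1a*, was exceeded by *Ppargc1a* in 20 of 67 female and 50 of 74 male libraries. *Mecom*, a close relative of *Prdm16*, exceeded it in all but 2 libraries of each sex.

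The sexes differed in 3 of the 9 members, all lower in females, when females and males of the same 59 strains were compared (edgeR quasi-likelihood test with strain as a block, Benjamini-Hochberg adjusted over 16765 genes). Over all genes tested, 58.1% passed, 29.8% being lower and 28.4% higher in females, so that 3 of 9 lower lies near the background. Female libraries held 15.4 ± 6.66 CPM of *Prdm16* and male libraries 25.02 ± 7.66 CPM (mean ± SD, n = 59), a log2 fold change (log2FC) of -0.76 ± 0.08 (SE, adjusted p = 6.33e-12), and was lower in the female in 54 of 59 strains. *Otop1* was 31.3 ± 32.3 CPM and 41.7 ± 24.9 CPM (log2FC = -0.69 ± 0.16, adjusted p = 2.04e-04, lower in 45 of 59). *Ppargc1a* was 9.58 ± 5.64 CPM and 11.4 ± 4.42 CPM (log2FC = -0.31 ± 0.09, adjusted p = 0.00221, lower in 44 of 59). The adipocyte markers moved with these genes, 5 of 6 being lower in females with a median log2FC of -0.67, as were 6 of 6 macrophage markers (median -0.77), and their part in the result was not tested apart from the following fit. With the adipocyte score as a covariate *Prdm16* was still lower, at a log2FC of -0.44 (adjusted p = 8.40e-06, edgeR), while *Otop1* at -0.42 and *Ppargc1a* at -0.20 no longer passed (adjusted p = 0.0797 and 0.136, edgeR). With the mammary score as a covariate, which differs between the sexes nearly as sex itself does, 0 of the 9 members passed. Over all genes 8 of 16765 passed in that fit, against 9747 in the main fit. The log2FC was then -0.42 for *Prdm16*, -0.61 for *Otop1* and -0.40 for *Ppargc1a*.

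The effector genes did not pass the test. *Ucp1* differed by a log2FC of -0.00 ± 0.46 (SE, adjusted p = 0.994) and was higher in the female in 26 strains and in the male in 33, and within strains the sexes differed by over 4-fold in 36 of 59. *Cidea* gave -0.33 ± 0.22 (adjusted p = 0.195), *Cox8b* -0.09 ± 0.18 (adjusted p = 0.665) and *Cox7a1* 0.07 ± 0.22 (adjusted p = 0.787). *Elovl3* gave 0.88 ± 0.42 (adjusted p = 0.0655) with the female above the male in 34 of 59 strains. Without NZW/LacJ, the matched strain in which a label and the Y-linked genes disagree, *Elovl3* passed at a log2FC of 0.98 (adjusted p = 0.0339), and it also passed with DESeq2 (adjusted p = 0.00734). *Dio2* gave 0.30 ± 0.20 (adjusted p = 0.208). Without CXB11/HiAJ, left out after the data were seen, *Elovl3* also passed (log2FC = 0.96, adjusted p = 0.0464). With the adipocyte score as a covariate the *Elovl3* value was 0.14 (adjusted p = 0.836, edgeR), and that of *Ucp1* was -1.06 (adjusted p = 0.131, edgeR). *Ucp1* had the widest standard error of the 9 members. Without strain in the model (no replicate block), *Prdm16* was the only member called lower in females, and *Ucp1* gave 0.89 (adjusted p = 0.187, edgeR).

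**Figure D2:**
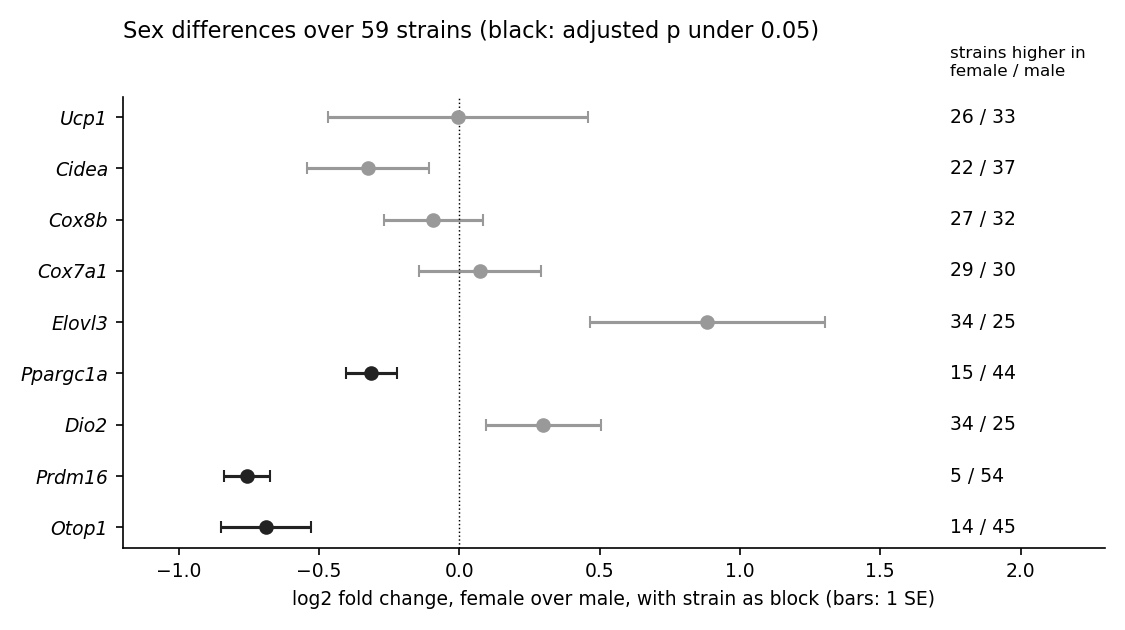
Fitted log2FC of female over male for the 9 genes with 1 SE, from the model with strain as a block over 59 strains, and at the right the number of strains in which the female or the male library was higher. *Prdm16*, *Otop1* and *Ppargc1a* (black) lie below 0, and *Ucp1* lies at 0 with the widest bar.

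Among other genes of the thermogenic programme the sexes differed in both directions, as they did over all genes, of which 58.1% passed, 28.4% higher and 29.8% lower in females. Of 12 paralogs of the members that could be tested, 9 passed, 3 higher and 6 lower in females, or 4 higher and 3 lower with library totals, and *Elovl6*, an elongase of fatty acid synthesis, had the largest rise (log2FC = 1.72). Of 13 transcriptional regulators, 8 passed, with *Ebf2* (log2FC = -0.41), *Pparg* (-0.38) and *Ppara* (-0.37) the largest, *Nrip1* and *Rb1* also lower in females, and *Ppargc1b* (0.30), *Zfp516* (0.24) and *Ehmt1* (0.15) higher. Library totals in place of TMM scaling moved the median of all genes from 0.01 to 0.12, with 7410 of 16765 genes then higher and 2774 lower in females. In that fit 5 regulators were higher and 2 lower, so the balance of this list and of the paralogs shifted with scaling as that of all genes did. Of 10 adrenergic pathway genes, 7 passed, led by the protein kinase A regulatory subunit *Prkar2b* (-0.71), the potassium channel *Kcnk3* (-0.48) and the kinase catalytic subunit *Prkaca* (-0.39), all lower in females, and only *Creb1* was higher. *Adrb3*, the beta-3 adrenergic receptor of adipocytes, gave 0.33 ± 0.16 (adjusted p = 0.0774). Of 12 genes of thermogenic fuel use, 8 passed, 6 lower and 2 higher in females, the largest being the fatty acid transporter *Slc27a2* (0.95), the lipid droplet protein *Plin5* (-0.79) and the thioesterase *Acot11* (0.73). Of 7 brown-selective genes, 3 passed, all lower in females, *Hspb7* (-1.88), *S100b* (-0.78) and *Lhx8* (-0.31). Of 8 beige-selective genes, 2 passed, *Slc36a2* (-0.40) and *Cited1*, which was higher in females by 5.68. The 9 mammary epithelial markers were all higher in females beside it, with a median log2FC of 6.90, and their part in the *Cited1* value was not tested. Of 6 secreted factors of thermogenic fat, 4 could be tested and 3 were lower in females, *Fgf21* (-0.83), *Nrg4* (-0.63) and *Vegfa* (-0.37). The balance of the adrenergic, fuel, brown-selective and secreted-factor lists kept its direction with library totals, with RLE size factors and with log2(TPM + 1). Most calls of several lists were lost with the adipocyte score as a covariate. In that fit 4 adrenergic, 1 fuel, 3 brown-selective and 1 secreted-factor gene passed, and 1 paralog, 4 regulators and 4 beige-selective genes. Over all genes 7959 of 16765 passed in it, against 9747 in the main fit.

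All 9 members differed between strains, and for each of them the sexes of a strain tended to lie at the same end. All 9 passed the test of the strain terms in the 59 matched strains (edgeR quasi-likelihood F-test), beside 71.2% of all genes tested. Since a strain has 1 library per sex, the spread used by this test is that between the sexes of a strain beyond the common sex difference. The F statistic was largest for *Dio2* (F = 5.82, adjusted p = 1.92e-09), *Elovl3* (4.80, 7.61e-08) and *Ucp1* (4.45, 2.94e-07), followed by *Cidea* (3.95, 2.16e-06) and *Cox7a1* (3.89, 2.70e-06). It was lower for *Cox8b* (2.94, 1.48e-04), *Ppargc1a* (2.68, 4.74e-04), *Otop1* (2.46, 0.00124) and *Prdm16* (2.17, 0.00442). With limma-voom, which works on the log scale, 7 of the 9 passed, with *Cox7a1* and *Elovl3* at adjusted p-values of 0.0637 and 0.0641. Calls also fell over all genes, with 10337 of 16765 past the threshold in that fit and 11932 in the main fit.

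Across the 59 strains the female and male log2 CPM of *Ucp1* were correlated at r = 0.52 and rho = 0.53 (adjusted p = 9.00e-05 and 2.70e-04 over 9 members, permutation tests). *Dio2* gave r = 0.58 and rho = 0.49 (adjusted p = 9.00e-05 and 3.00e-04, permutation tests), and *Cidea* r = 0.48 and rho = 0.50. The other 6 members lay between r = 0.39 and 0.45 and between rho = 0.34 and 0.40, and all 9 passed. The same correlation was not computed for other genes, so it cannot be called particular to the members. In the strain test of the same 59 strains 71.2% of all genes passed. Leaving out the 2 strains farthest from the female median lowered r to 0.51 for *Ucp1* and to 0.44 for *Dio2*, and the lowest such r was 0.33, for *Ppargc1a*. *Ucp1* was at or above 100 TPM in both sexes of 5 strains, BXD14/TyJ, BXD75/RwwJ, DBA/2J, NZB/BlNJ and SJL/J, and below 1 TPM in both sexes of 5, BXA2/PgnJ, BXD45/RwwJ, BXD49/RwwJ, BXD74/RwwJ and BXD85/RwwJ. In 7 strains only the female reached 100 TPM and in 6 only the library labelled male, NZW/LacJ and PL/J among these 6. The sexes of a strain could also lie far apart. *Ucp1* in MA/MyJ was 1250 TPM in the female and 24.4 TPM in the male, in FVB/NJ 386.1 and 6.19 TPM, and in AXB19b/PgnJ 0.188 and 131.1 TPM. In NZW/LacJ it was 0.0908 TPM in the female and 315.4 TPM in the library labelled male. The Y-linked counts of these libraries were 8.63 and 8.16 CPM and their mammary scores 5.35 and 5.11, so this gap cannot be taken as one between the sexes.

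**Figure D3:**
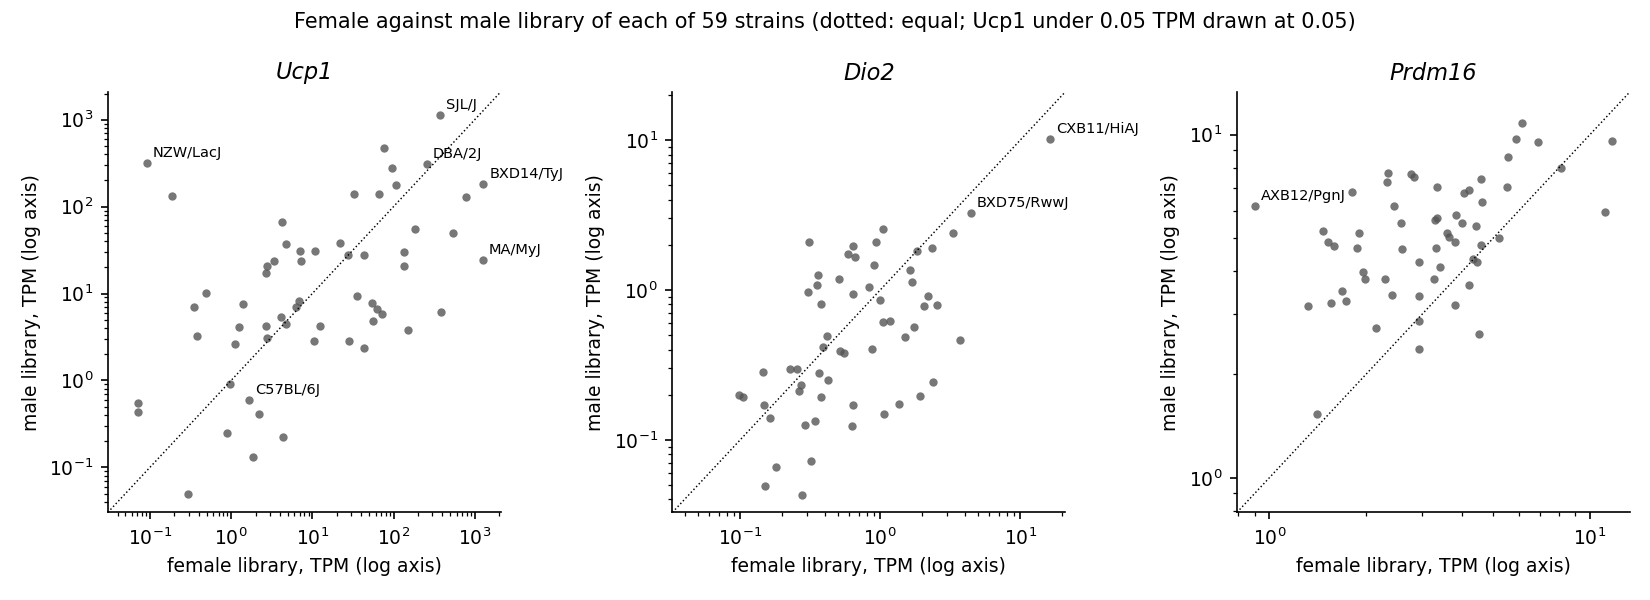
TPM in the male against the female library of each of 59 strains (log axes) for *Ucp1*, *Dio2* and *Prdm16*, with a dotted line where the sexes are equal. *Ucp1* and *Dio2* points scatter on both sides of the line and rise along it, CXB11/HiAJ is highest for *Dio2* in each sex, and most *Prdm16* points lie above the line.

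The parents of the BXD lines, which were bred from crosses of C57BL/6J with DBA/2J, stood far apart in the effector genes. In C57BL/6J *Ucp1* stood at 1.64 TPM in the female and 0.594 TPM in the male, against 255.5 and 310.1 TPM in DBA/2J. *Elovl3* was 0.169 and 0.410 TPM in C57BL/6J and 14.96 and 7.52 TPM in DBA/2J, *Cidea* 20.7 and 16.6 against 129.3 and 103.4 TPM, and *Cox8b* 69.9 and 81.4 against 322.2 and 200.1 TPM. *Prdm16* differed little between these libraries, at 3.32 and 5.70 against 4.19 and 6.88 TPM. Each parental value is a single library, so these differences carry no test. In males 27 of 34 BXD libraries had *Ucp1* between the parental values, 7 lay below C57BL/6J and 0 above DBA/2J. In females 18 of 32 lay between, 10 below and 4 above. The medians of the BXD libraries, 4.45 TPM in females and 7.91 TPM in males, lay nearer to C57BL/6J on the TPM scale. For *Dio2* the female BXD libraries lay mostly outside the parental values of 0.642 and 0.930 TPM, 14 below and 16 above. The parents of the AXB and BXA lines are A/J and C57BL/6J. *Ucp1* in A/J was 71.1 TPM in the female and 5.85 TPM in the male, and 4 of 9 female and 5 of 11 male AXB or BXA libraries lay between the parents.

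Between strain families, 4 members differed in females and 7 in males, but most of these calls depended on the test. The families were 24 classical inbred strains, the older BXD/TyJ lines, the newer BXD/RwwJ lines, the AXB and BXA lines, CXB and BXH, the last of these with 2 female and 3 male libraries. In males 21.6% of all genes passed (edgeR quasi-likelihood F-test), and *Ucp1* (adjusted p = 0.00638), *Cidea*, *Cox8b*, *Cox7a1*, *Elovl3*, *Ppargc1a* and *Dio2* (adjusted p = 8.77e-05) were among them. Male *Ucp1* had a median of 27.4 TPM in the classical strains (range 0.238 to 1134 TPM), 7.57 TPM in BXD/TyJ, 7.91 TPM in BXD/RwwJ, 4.44 TPM in AXB and BXA, 2.87 TPM in CXB and 2.17 TPM in BXH, and the ranges overlapped. In females 21.9% of all genes passed, with *Cidea* (adjusted p = 0.0437), *Cox7a1* (0.0108), *Ppargc1a* (0.0463) and *Dio2* (2.93e-04) among them and *Ucp1* not (0.143). Female *Ucp1* had a median of 133.4 TPM in BXD/TyJ (range 0 to 1276 TPM, n = 9), 32.5 TPM in the classical strains, 10.6 TPM in CXB, 4.30 TPM in AXB and BXA, 3.37 TPM in BXD/RwwJ (n = 23) and 3.26 TPM in BXH. On the log scale, with limma-voom or with limma on log2(TPM + 1), 0 of the 9 members passed in females and 1 in males. Over all genes these fits called 708 and 5208 of 20270 in females, against 4446 in the main fit. In males they called 2515 and 5565 of 19283, against 4160. Without CXB11/HiAJ, left out after the data were seen, 2 members passed in females, and 4 passed in males, where *Dio2* was then at an adjusted p of 0.570 and *Ucp1* at 0.00923. Without AXB12/PgnJ 2 passed in females and 7 in males. Over all genes, 4383 of 20263 passed in females and 3152 of 19821 in males without CXB11/HiAJ, and 4164 of 20215 and 4036 of 19281 without AXB12/PgnJ. Leaving out the libraries with Y-linked counts against the label gave 1902 of 19970 and 3825 of 19213. Without the libraries whose Y-linked counts went against the label, *Cox7a1* and *Dio2* passed in females (adjusted p = 0.0221 and 0.00155), *Cidea* and *Ppargc1a* no longer did (adjusted p = 0.0546 and 0.181), and the same 7 passed in males.

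**Figure D4:**
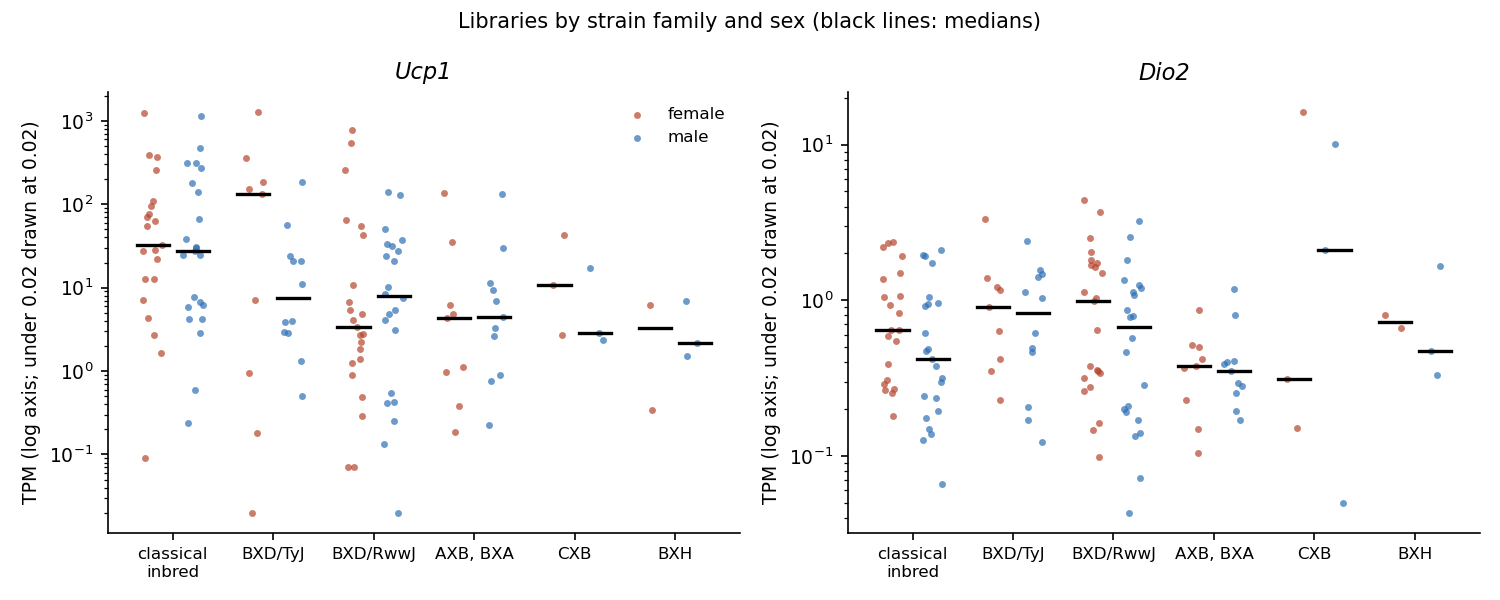
TPM of *Ucp1* and *Dio2* (log axes) by strain family and sex, with each point a library and black lines the medians. The families overlap for *Ucp1*, with the highest medians in the female BXD/TyJ and the classical inbred libraries, and the 2 highest *Dio2* points are the female and male of CXB11/HiAJ in the CXB family.

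Whether the sex difference of a member was the same in BXD lines as in the other strains was tested as an interaction in the 59 matched strains. None of the 9 passed, and neither did any of the 16765 genes (edgeR quasi-likelihood test), with 314 genes at an unadjusted p under 0.05. The difference of the log2FC, BXD minus the others, was 0.31 ± 0.95 (SE) for *Ucp1*, 1.40 ± 0.82 for *Elovl3*, 0.47 ± 0.41 for *Dio2* and 0.24 ± 0.16 for *Prdm16*.

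*Ucp1*, *Cidea*, *Cox8b*, *Cox7a1* and *Elovl3* rose and fell together across libraries of each sex, and *Prdm16* did not follow them. Log2 CPM of each pair was compared within 67 female and within 74 male libraries, 72 relations in all, of which 53 passed for rho (permutation tests, adjusted over the 72). Pairs of other genes were not tested in this way, so no share over all genes stands beside that count. *Ucp1* and *Cidea* gave r = 0.91 and rho = 0.91 in females and r = 0.73 and rho = 0.72 in males (adjusted p = 1.85e-05 for r and 2.18e-05 for rho, from the smallest p that 100000 permutations can give, 1e-05). Without the 2 libraries farthest from the *Ucp1* median these were r = 0.90 and 0.72. The 10 pairs among those 5 genes lay between rho = 0.70 and 0.91 in females and between 0.36 and 0.84 in males. The lowest in males were *Elovl3* with *Cox8b* and with *Cidea* (0.36 and 0.37). *Otop1* followed *Ucp1* at rho = 0.64 in females and 0.71 in males, and followed *Dio2* at 0.58 and 0.60. *Ppargc1a* followed *Cox8b* at rho = 0.69 and 0.57, and *Ucp1* at 0.49 in females (adjusted p = 1.14e-04, permutation test) and 0.22 in males (adjusted p = 0.0741, permutation test). *Prdm16* and *Ucp1* gave rho = 0.10 in females and 0.04 in males (adjusted p = 0.478 and 0.771, permutation tests). The only members that *Prdm16* followed in both sexes were *Otop1* (rho = 0.51 and 0.35) and *Dio2* (0.32 and 0.25).

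**Figure D5:**
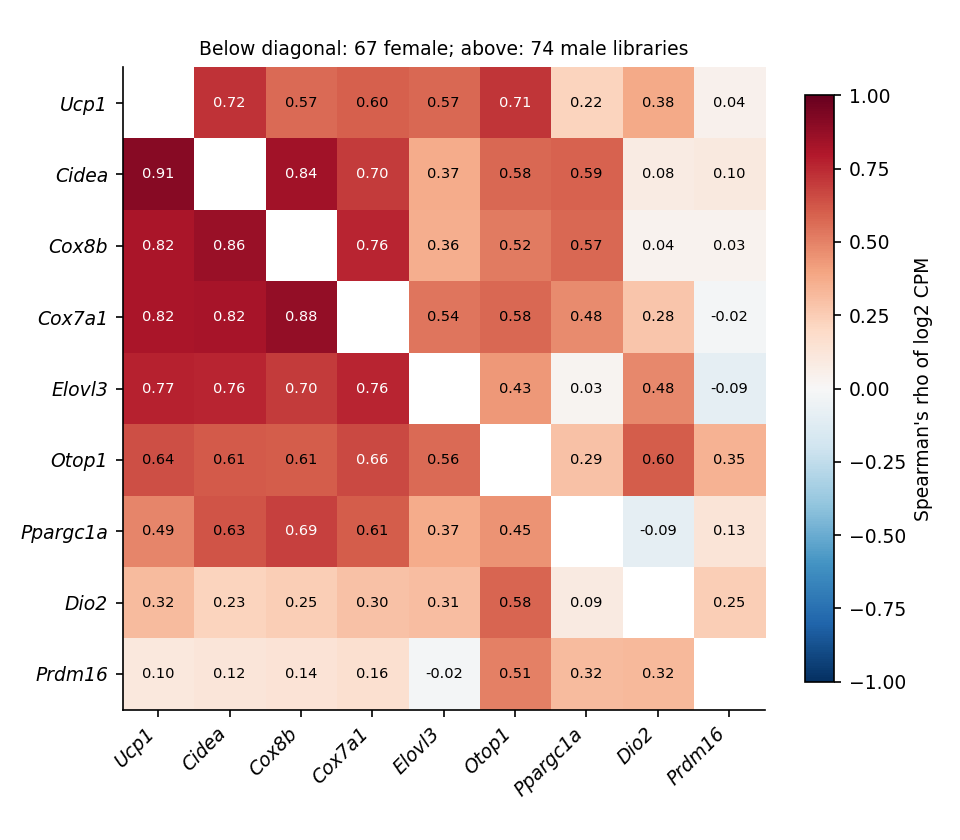
Spearman's rho of log2 CPM between pairs of the 9 genes, below the diagonal over 67 female libraries and above it over 74 male libraries (colour and number). The block from *Ucp1* to *Elovl3* is dark red below the diagonal, and the *Prdm16* row and column are pale except beside *Otop1* (0.51 and 0.35).

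Other measures of a library moved with the members, and their part in these relations was not tested beyond the fits named here. The share of counts from mitochondrially encoded genes, which ranged from 3.99% to 29.9%, followed *Cox8b* at rho = 0.71 in females and 0.66 in males and *Ucp1* at 0.63 and 0.46. *Prdm16* passed for neither r nor rho, and *Dio2* passed for r (0.40 in females and 0.33 in males) but not for rho (0.20 and 0.16), with r = 0.32 and 0.035 without the 2 libraries farthest from the median. The log2 total count passed for rho with *Dio2* in females (rho = -0.31), and for r with *Ppargc1a* in females (r = -0.29) and *Dio2* in males (r = 0.29). The last of these had the opposite sign to that in females. Without the 2 libraries farthest from the median total, r was -0.079 for *Ppargc1a* in females and 0.10 for *Dio2* in males. Neither of these passed for rho (-0.12 and 0.15). Of the relations with scores of 6 marker lists, 19 passed for rho. The macrophage score was lower where *Cox8b*, *Cox7a1*, *Ppargc1a*, *Cidea*, *Ucp1* and *Elovl3* were higher in females (rho = -0.58, -0.54, -0.54, -0.51, -0.45 and -0.43), and in males for *Ppargc1a* (-0.56), *Cox8b* (-0.40) and *Cidea* (-0.36). It ran the other way for *Dio2* in males (rho = 0.39). *Prdm16* in females followed the adipocyte score (rho = 0.52) and ran against the lymph node score (-0.61). Skeletal muscle also expresses *Cox7a1* and *Cox8b*. The muscle score passed with neither, and passed for rho with *Ucp1* (-0.36 in females and -0.31 in males) and with *Cidea* in males (-0.35). The library with the highest muscle score, female BXD79/RwwJ (9.95), held 47.9 TPM of *Cox7a1* and 190.4 TPM of *Cox8b*, and the part of muscle in these levels was not tested. Taking the muscle or the adipocyte score out of each gene left 53 and 54 of the 72 pairs past the threshold.

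The genes outside the list whose pattern was most like that of *Ucp1*, by the smaller of the female and the male rho over 16861 other genes, were led by *Cpt1b*, the carnitine palmitoyltransferase of muscle and brown fat (rho = 0.87 in females and 0.78 in males), and *Fabp3*, a fatty acid binding protein of oxidative tissues (0.84 and 0.72). Next came *Hadha*, *Acadvl*, *1700037H04Rik*, *Plin5*, *Afg3l2*, *Dnajc11*, *Chchd10* and *Hadhb*, with a smaller rho of 0.60 to 0.66. *Hadha*, *Hadhb* and *Acadvl* encode enzymes of mitochondrial fatty acid oxidation. *Fabp3* ran from 0 to 332.3 TPM in females and 0 to 511.7 TPM in males, and *Cpt1b* from 0.478 to 91.7 and 3.06 to 110.4 TPM. Placed in the same order among all other genes, *Cidea* was number 2, *Otop1* 5, *Cox7a1* 11, *Elovl3* 16 and *Cox8b* 17, and *Dio2* 380, *Ppargc1a* 869 and *Prdm16* 3808. *Afg3l2* lies close to *Cidea* on chromosome 18, and *Hadha* and *Hadhb* adjoin on chromosome 5.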

How the data were processed

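Subcutaneous adipose RNA-seq libraries were compared by sex and strain as given in the labels. The authors pseudo-aligned the reads with kallisto 0.46.1 and summarised transcripts to genes, and deposited an estimated count per gene and library. The authors also deposited TPM, which sum to 1000000 in each library. Of the estimated counts 30.3% were not whole and were rounded. Symbols were matched to 35856 of 36558 gene identifiers (GENCODE M21, GRCm38). Totals were 6269154 to 78562648 per library, and floors cover counting error only.

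Counts were tested in R 4.3.3 with edgeR 4.0.16 (filterByExpr, TMM, quasi-likelihood F-test, Benjamini-Hochberg adjustment over all genes, threshold 0.05). Sex and strain were fitted as ~ strain + sex in the 59 strains with both sexes, and families within each sex. Same-strain libraries pair through the strain label. Their deviations correlated at a mean of 0.407, against -0.00714 for other strains. Correlations used log2 CPM (prior count 2) and 100000 permutations. Alternatives used DESeq2 1.42.0, limma 3.58.1, other scalings, filters, pseudocounts (0.1 and 1), marker covariates and left-out libraries. The tests were tried on simulated data. The named genes were all 9 members, their paralogs, fixed lists by pathway and the 10 genes most like *Ucp1*. Members and lists were chosen with earlier results of these data known.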

Additional observations from a re-analysis of the deposited data

Results flagged for a closer look

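Only 2 combinations of strain family and sex held 4 to 10 libraries, the female BXD/TyJ and the female AXB and BXA libraries, with 9 each. For each of the 9 members in these, 18 sets of values in all, the extreme library was compared with its nearest neighbour on log2(TPM + 0.1), and 2 sets had a library set far apart, where chance gives about 1 in 20. *Prdm16* in the female BXD34/TyJ library was 0.805 TPM, the lowest of 9 female BXD/TyJ libraries, and the Y-linked counts of this library went against its label. It also had the fewest counts of all libraries (6269154) and the highest share from mitochondrially encoded genes (29.9%). In log2 CPM the *Prdm16* values of these 9 libraries had a mean of 4.24 and an SD of 0.319, a spread too small for a gap as wide as that in TPM. *Otop1* in the female AXB12/PgnJ library was 0.567 TPM, the lowest of 9 female AXB and BXA libraries, and this library had an adipocyte score of 7.80, a lymph node score of 7.19 and a muscle score of 4.93. Their part in these values was not tested.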

How the results depend on the processing

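No member was called higher in females, and 1 member was in each of several settings. It was *Elovl3* under DESeq2, library totals, limma-voom, limma on log2(TPM + 1) or log2(TPM + 0.1), without the strains whose Y-linked counts went against a label, and without CXB11/HiAJ, and *Cox7a1* (0.67, adjusted p = 0.0282, edgeR) with no replicate block in all libraries. The 3 members lower in females became 0 with the mammary score, and 1 with the adipocyte score, with no replicate block, and with no replicate block in all libraries. Over all genes 9747 passed in the main fit, 8 with the mammary score and 7959 with the adipocyte score. With no replicate block 8190 passed in matched and 8682 in all libraries. The sign of values that did not pass turned. *Ucp1* became 0.00996 (DESeq2), 0.12 (library totals), 0.089 (without the Y-discordant strains), 0.0042 (muscle score), 0.060 (without AXB12/PgnJ), 0.89 and 1.09 (no replicate block, matched and all libraries), 0.42 (limma-voom), 0.083 (log2(TPM + 1)) and 0.012 (log2(TPM + 0.1)). Its largest moves below 0 were -1.43 (mammary score) and -1.06 (adipocyte score). *Cox8b* became 0.024 (library totals), 0.022 (adipocyte score), 0.050 and 0.17 (no replicate block, matched and all), and *Cidea* 0.33 and 0.43 (the same). With the mammary score *Cox7a1* became -0.59, *Elovl3* -1.80 and *Dio2* -0.43, and with the adipocyte score *Cox7a1* became -0.0089. Families gave 4 members in females, against 0 with limma-voom and log2(TPM + 1), 2 with library totals, the muscle score, and without Y-discordant libraries, CXB11/HiAJ or AXB12/PgnJ, and 7 with the adipocyte score. In males 7 became 1 with limma-voom and log2(TPM + 1), and 4 without CXB11/HiAJ or with families of at least 9 libraries. Over all genes the family calls ran from 708 (limma-voom) to 5890 (adipocyte score) in females, against 4446 in the main fit. In males they ran from 2376 (families of at least 9 libraries) to 5801 (adipocyte score), against 4160. The cause was not tested. The settings without CXB11/HiAJ or AXB12/PgnJ and with families of at least 9 libraries were chosen after seeing the data. The depth of the shallowest library puts 3 counts at 0.479 CPM, which limits *Ucp1* and *Elovl3* at their low end.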
